A study of Mus musculus with 119 samples.

Results

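Immediate early genes are switched on within minutes of a stimulus, before any new protein is made. In neurons, calcium and growth factor signals act through kinases on factors already bound to the DNA, such as CREB and serum response factor, and the messages that follow are short-lived. Their level in a brain sample is therefore widely used as a trace of recent neuronal activity. The 10 genes described here were chosen by name, out of 55291 genes counted, and all 10 were found in both count tables. Fos, Fosb and Junb encode subunits of the AP-1 transcription factor. Egr1, Egr2 and Egr4 encode zinc finger factors of the early growth response family. Npas4 encodes a factor induced by calcium entry, and Nr4a1 an orphan nuclear receptor. Arc and Dusp1 act outside transcription, Arc as a synaptic protein that takes part in AMPA receptor removal and Dusp1 as a phosphatase that switches off MAP kinases.

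The libraries came from punches of 5 brain regions of female and male mice, the ventral tegmental area (VTA), the amygdala (Amy), the nucleus accumbens (NAc), the dorsal medial striatum (DMS) and the prefrontal cortex (PFC). The mice received either THC, the psychoactive cannabinoid of cannabis, at 10 mg/kg or a vehicle of ethanol, tween and saline at 0 mg/kg. Both were given as 1 intraperitoneal injection a day from postnatal day 28 to 48, 21 injections in all, behavior was tested from day 63 on, and the brains were collected 2 days after the last test. No drug had been given for more than 2 weeks at collection, so the levels are those of mice with a history of THC, after behavioral testing that all groups shared. Each region, sex and treatment had 6 libraries, except 5 for the VTA of vehicle-treated males, which gave 59 vehicle and 60 THC libraries.

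Some limits of the labels bear on what follows. The labels give C57BL/6J mice of 11 weeks, whereas the study's methods give C57BL/6NCrl mice at an older age, and the tissue label of the DMS libraries reads dorsolateral striatum although their titles read DMS. All 5 regions were taken from the same mice, but the labels do not say which libraries share a mouse, so the regions are not independent and the mouse could not enter a model. In the Amy, library FTL_344, labelled as a THC-treated female, held 0.293 CPM of Xist (counts scaled to the size of the library) and 139 CPM of Y-linked genes, and library FTL_356, labelled as a THC-treated male, held 488 CPM of Xist and 0.371 CPM of Y-linked genes. Both go against their sex labels. Some Amy values are also given without them, and Amy values given only once include them. Total counts ran from 3090998 to 77042133 per library with a median of 22092612, and were most even in the PFC and DMS, from 17826631 to 25470245. In the Amy the 6 libraries of THC-treated females held 20341366 to 76111373 counts and those of THC-treated males 8713204 to 14939490. Regional markers matched the labels: midbrain dopaminergic markers summed to 871.8 to 3246 CPM in the VTA and to no more than 17.3 CPM elsewhere, and medium spiny neuron markers to 5522 to 9365 CPM in the DMS.

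The promoters of these genes are the sequences through which activity reaches them, and 6 of them are shown because they hold more than 1 CRE core or a full CRE. RefSeq windows on GRCm38.p6, read from 250 bases before a start site up to that site, were searched for 8 of the 10 genes. No window was found for Arc. Egr1 was not searched, because all windows on its chromosome were left out. Capitals mark the core of the cAMP response element (CRE), which is TGACG or CGTCA on the other strand, the full CRE TGACGTCA that contains both, the TATA box TATAAA, and the CArG box of serum response factor. Each window runs 5′ to 3′ along the strand of its gene.
Fos, chr12:85473640-85473889, plus strand: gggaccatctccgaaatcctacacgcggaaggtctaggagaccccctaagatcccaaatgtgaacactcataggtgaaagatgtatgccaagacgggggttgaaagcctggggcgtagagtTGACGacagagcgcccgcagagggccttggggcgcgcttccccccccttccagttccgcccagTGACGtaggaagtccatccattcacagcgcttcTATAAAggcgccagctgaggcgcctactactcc
Egr2, chr10:67537619-67537868, plus strand: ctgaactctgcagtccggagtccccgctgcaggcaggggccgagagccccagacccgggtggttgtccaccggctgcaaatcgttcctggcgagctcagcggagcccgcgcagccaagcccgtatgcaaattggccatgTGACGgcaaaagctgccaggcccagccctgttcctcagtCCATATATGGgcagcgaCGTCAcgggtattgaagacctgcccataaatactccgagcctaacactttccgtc
Egr4, chr6:85513590-85513839, minus strand: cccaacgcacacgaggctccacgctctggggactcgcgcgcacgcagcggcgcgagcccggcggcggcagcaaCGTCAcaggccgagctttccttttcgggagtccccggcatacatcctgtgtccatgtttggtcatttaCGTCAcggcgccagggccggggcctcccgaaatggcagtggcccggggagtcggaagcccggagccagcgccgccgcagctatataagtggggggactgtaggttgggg
Nr4a1, chr15:101266596-101266845, plus strand: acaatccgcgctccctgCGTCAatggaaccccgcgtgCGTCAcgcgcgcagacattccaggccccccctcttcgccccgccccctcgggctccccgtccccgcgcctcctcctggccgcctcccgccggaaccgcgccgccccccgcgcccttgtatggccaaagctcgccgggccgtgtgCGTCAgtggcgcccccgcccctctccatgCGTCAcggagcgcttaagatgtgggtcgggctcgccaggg
Npas4, a stretch at chr19:4990129-4990158, minus strand: ccgttcgaCGTCAcgggaTGACGtcggaag
Dusp1, a stretch at chr17:26508597-26508626, minus strand: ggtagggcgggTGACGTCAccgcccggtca
All 8 genes held at least 1 CRE core in a window. This motif was held by 17.7% of the 32817 mouse windows of this length that were searched, on both strands. Those windows do not include the chromosome of Egr1. Fos held it 129 and 66 bases before its start, with a TATA box 33 bases before it, and Nr4a1 held it 4 times, at 233, 213, 69 and 40 bases. Egr2 has 5 windows, and 3 of them held the CRE core. The window shown held it at 111 and 55 bases, with a CArG box, found in 1.47% of windows, at 72 bases. Egr4 held it at 177 and 109 bases, Npas4 at 179 and 169 bases, Fosb at 60 bases and Junb at 106 bases. Dusp1 held the full CRE, found in 1.55% of windows, at 143 bases. The TATA box was in 12.4% of the windows searched. The windows of Npas4 and Dusp1 overlap exons of other annotated transcripts, and these are matches of letters, with no binding measured. In GENCODE, also on GRCm38, all 10 genes are protein coding, among them Fos at chr12:85473890-85477273 on the plus strand, Arc at chr15:74669083-74672570 on the minus strand and Npas4 at chr19:4984355-4990316 on the minus strand.

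To see where these genes were high, levels were compared between the vehicle-treated mice of the 5 regions, 12 libraries per region and 11 in the VTA. Every member had its highest mean in the PFC or the DMS. Of the 10 members, 5 had their highest mean in the PFC (Fos, Egr1, Nr4a1, Arc, Dusp1) and 5 in the DMS (Fosb, Junb, Egr2, Egr4, Npas4), and 8 had their lowest in the VTA, while Fos was lowest in the DMS and Dusp1 in the Amy. Levels are given as TMM-normalized CPM, mean ± SD, and a difference was called at FDR<0.05 and absolute logFC≥0.4 by edgeR.

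Fos, the inducible partner in AP-1, stood at 14.5 ± 9.81 CPM in the PFC, 7.42 ± 3.36 in the Amy, 6.25 ± 4.31 in the NAc, 6.24 ± 3.18 in the VTA and 3.71 ± 2.59 in the DMS. The PFC exceeded the Amy (log2 fold change 0.91, SE 0.24, adjusted p = 0.000815), and the Amy, NAc and VTA did not differ beyond their spread (adjusted p of 0.508 and 0.661 for the neighbors), while the DMS lay below the VTA (0.62, adjusted p = 0.0339). Fosb, whose truncated product accumulates with repeated stimulation, had another order, with 12.1 ± 2.10 CPM (DMS), 10.0 ± 2.59 (PFC), 9.62 ± 2.96 (NAc), 8.42 ± 1.90 (Amy) and 1.26 ± 0.410 (VTA). Its neighbors among the 4 forebrain regions lay within 0.4 on the log2 scale of each other, and the Amy exceeded the VTA by 2.78 (SE 0.15, adjusted p = 1e-24). Junb, an AP-1 partner that is also present at rest, was likewise highest in the DMS (64.9 ± 13.5 CPM) and lowest in the VTA (12.6 ± 2.87), with the NAc (56.6 ± 10.3), Amy (47.5 ± 7.26) and PFC (46.1 ± 14.3) between them.

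Egr1 had the highest CPM of the members in the PFC, DMS, NAc and Amy, but not in the VTA. It stood at 162 ± 73.1 CPM in the PFC and 145.4 ± 49.02 in the DMS, which did not differ beyond their spread (log2 fold change 0.11, adjusted p = 0.474), then stepped down to 85.4 ± 18.3 (NAc), 58.9 ± 11.98 (Amy) and 10.3 ± 4.37 (VTA), each step being called. Egr2 and Egr4 were highest in the DMS. Egr2 reached 6.04 ± 3.71 CPM there, against 2.24 ± 1.92 in the PFC (log2 difference between the regions 1.55, SE 0.26, adjusted p = 3.46e-07) and 0.173 ± 0.260 in the VTA, where some libraries held no Egr2 count. Egr4 stood at 34.2 ± 10.9 CPM (DMS), 23.8 ± 4.76 (NAc), 22.3 ± 6.72 (PFC), 20.6 ± 2.91 (Amy) and 0.851 ± 0.470 (VTA), and its step from the Amy to the VTA of 4.94 (SE 0.19, adjusted p = 1.49e-30) was the widest step between neighbors of any member.

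Npas4 did not differ beyond its spread between DMS (18.4 ± 11.7 CPM), PFC (16.6 ± 8.30) and NAc (16.0 ± 7.84), with adjusted p of 0.568 and 0.916 for the neighbors. It was lower in the Amy (9.83 ± 2.41, 0.69 below the NAc on the log2 scale, adjusted p = 0.0115) and lowest in the VTA (4.06 ± 1.58). Nr4a1 stood at 54.8 ± 22.9 CPM in the PFC, above the DMS at 35.8 ± 18.9 (0.62, adjusted p = 0.00121), and at 7.75 ± 1.41 in the VTA. The effectors had the shallowest profiles. Arc stood at 78.1 ± 38.5 CPM (PFC), 53.3 ± 20.7 (DMS), 41.6 ± 13.8 (NAc), 27.7 ± 3.81 (Amy) and 24.8 ± 2.86 (VTA). The DMS and NAc did not differ beyond their spread (0.34, adjusted p = 0.0639), and the Amy and VTA did not either (0.16, adjusted p = 0.421). Dusp1 spanned only 25.2 ± 6.14 CPM in the PFC to 11.0 ± 0.948 in the Amy, with the VTA at 13.3 ± 1.85 between the NAc and the Amy.

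**Figure D1:**
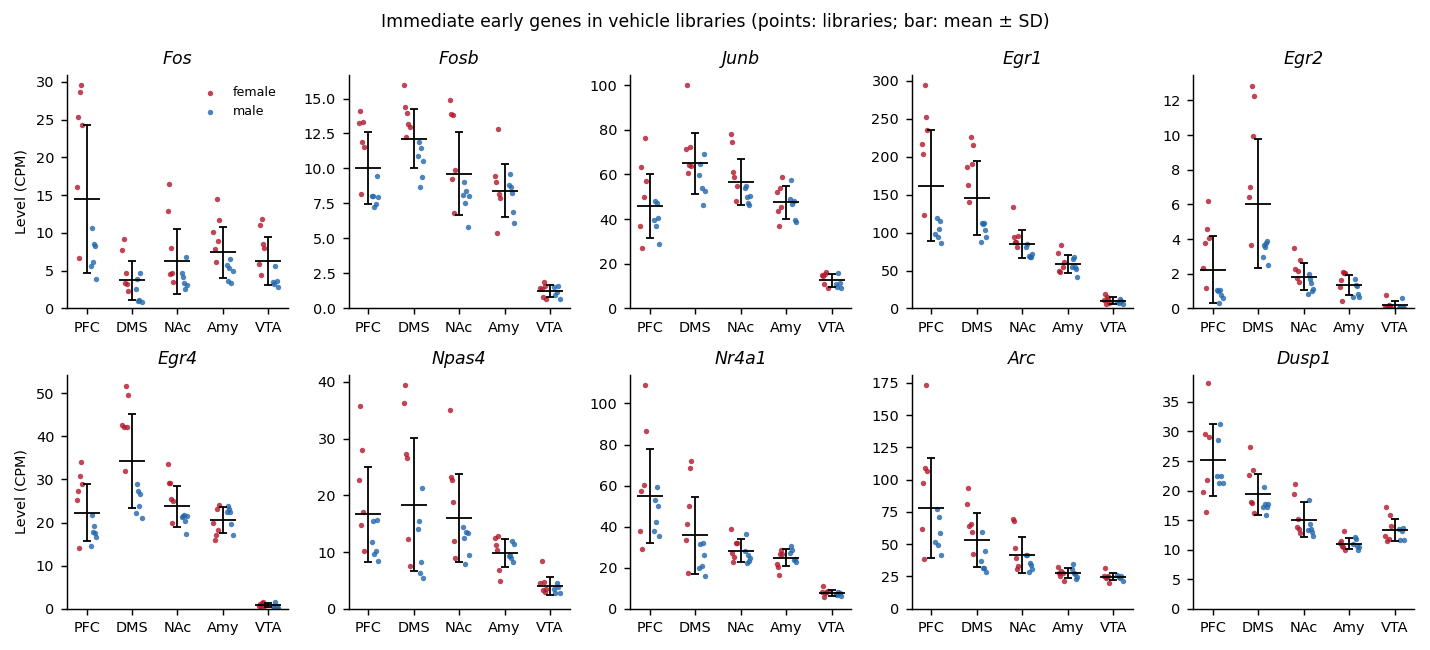
Level of each of the 10 genes in the vehicle libraries of 5 regions, in TMM-normalized CPM on linear axes that start at 0; points are libraries of females (red) and males (blue), and the bar is the mean ± SD. The VTA points lie far below the forebrain for the AP-1 genes Fosb and Junb and for the EGR genes, but not for Arc, Dusp1 or Fos, and in the PFC and DMS the highest points are mostly female.

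Region pairs differ in many genes, so the members' counts are read against the share of all 17712 genes called. Between PFC and VTA all 10 members were called, all higher in the PFC (55% of all genes called), and between DMS and VTA all 10, with Fos the 1 member lower in the DMS (57.6%). Between NAc and VTA 8 were called (52.1%) and between Amy and VTA 7 (43.4%), in each case all higher in the forebrain region. Each of these counts against the VTA includes Egr2, which did not pass the filter on low counts within the VTA. Egr2 entered these tests through its levels in the other regions, so its calls against the VTA add no support. Within the forebrain, 6 were called between PFC and DMS, 3 in each direction (49.2%), 5 between PFC and NAc (45.2%), 6 between PFC and Amy (37.4%), 4 between DMS and NAc (30.7%), 10 between DMS and Amy (43%) and 4 between NAc and Amy (24.8%). The median log2 difference of the members was 2.46 between PFC and VTA, with -0.03 over all genes, and -0.02 between PFC and DMS, with -0.06 over all genes. The count between DMS and Amy dropped to 5 in male vehicle libraries alone and to 5 in THC libraries, and that between NAc and Amy to 1 in each. The PFC and DMS were counted in one table and the other regions in another, so differences between those sets of regions cannot be told apart from a difference between the tables. In bulk tissue, fewer cells of a type and less RNA per cell cannot be told apart.

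Dividing by exon length allows the genes to be ranked within a region. Per kilobase of exon, Egr1 led in the PFC at 36.1 CPM, followed by Arc at 25.5, Junb at 20.0 and Nr4a1 at 15.6, with Egr2 last at 0.660, and Egr1 also led in the DMS at 32.4, ahead of Junb at 28.2. Junb led in the NAc at 24.6 CPM per kilobase and in the Amy at 20.6, with Egr1 next at 19.0 and 13.1. In the VTA, Arc led at 8.10 CPM per kilobase, followed by Junb at 5.47 and Dusp1 at 4.01.

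The members varied more between mice of one group than most genes did. The SD of log2 CPM within sex and treatment groups had a median over the members of 0.50 (PFC), 0.38 (DMS), 0.35 (NAc), 0.32 (Amy) and 0.41 (VTA), against 0.12, 0.13, 0.14, 0.19 and 0.17 over all genes tested. Egr2 was the most variable member in the PFC, with an SD of 0.88 at the 99.1 percentile of all genes, and Fos in the DMS, with 0.84 at the 97.3 percentile. Fosb was the least variable in both, at the 75.2 and 63.0 percentiles, and in the VTA Arc lay at the 49.5 percentile. The lowest counts of single libraries were 16 for Fos, 4 for Fosb, 2 for Egr4 and 0 for Egr2, the last 3 in VTA libraries, where counting error is part of that spread. Egr2 did not pass the filter on low counts in the VTA, which leaves 9 members in tests within that region.

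Much of this spread was shared, so that a mouse high in one member was high in most others. Within each region, log2 CPM was centered on the 4 groups and the 45 pairs of members were correlated across 24 libraries, or 23 in the VTA, with Benjamini-Hochberg adjustment over the pairs of all regions and 100000 two-sided permutations of libraries within groups. Of these, 218 had a positive r and 147 passed an adjusted p of 0.05 by Pearson's r (131 by Spearman's rho), with 38 of 45 pairs (PFC), 30 (DMS), 32 (NAc), 28 (Amy) and 19 (VTA). Without the 2 libraries farthest from the median of one gene, 126 of the 147 kept an r above 0.4. The median r over the pairs was 0.866 (PFC), 0.533 (DMS), 0.643 (NAc), 0.533 (Amy) and 0.452 (VTA).

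In the PFC, Arc and Nr4a1 had the highest r, 0.971 (rho 0.944, permutation p = 1e-05, the smallest these permutations can give, adjusted p = 6.43e-05, r of 0.960 without the 2 farthest libraries). In the DMS, Egr2 with Nr4a1 had an r of 0.939 (rho 0.923), Egr1 with Egr4 an r of 0.931 (rho 0.872), and Fos with Arc an r of 0.860 (rho 0.899), each with a permutation p of 1e-05, and r without the 2 farthest libraries was 0.927, 0.870 and 0.847. The highest r elsewhere was 0.884 for Junb with Egr4 in the NAc (rho 0.899), 0.863 for Junb with Nr4a1 in the Amy (rho 0.830) and 0.767 for Junb with Egr1 in the VTA (rho 0.804).

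By median r, Npas4 was the member that followed the others least in every region but the VTA. It passed with 2 of 9 partners in the PFC and VTA, 3 in the DMS and NAc and 1 in the Amy. With Nr4a1 its r was 0.188 in the PFC (rho 0.223, permutation p = 0.461, adjusted p = 0.496), -0.114 in the DMS, 0.062 in the NAc and -0.183 in the Amy. In the VTA, however, Npas4 followed Nr4a1 with an r of 0.618 (rho 0.640, adjusted permutation p = 0.0167), or 0.459 without the 2 farthest libraries. In the DMS it followed Fos with an r of 0.744 (rho 0.738), or 0.680 without the 2 farthest libraries. Fosb in the DMS, where its mean was highest, passed with 1 of 9 partners. Egr2 in the VTA, at levels near the detection limit, passed with none of 9. In vehicle libraries alone, with 12 or 11 libraries a region, the pairs that passed numbered 24 (PFC), 13 (DMS), 10 (NAc), 8 (Amy) and 9 (VTA), and without libraries FTL_344 and FTL_356 the Amy had 26.

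**Figure D2:**
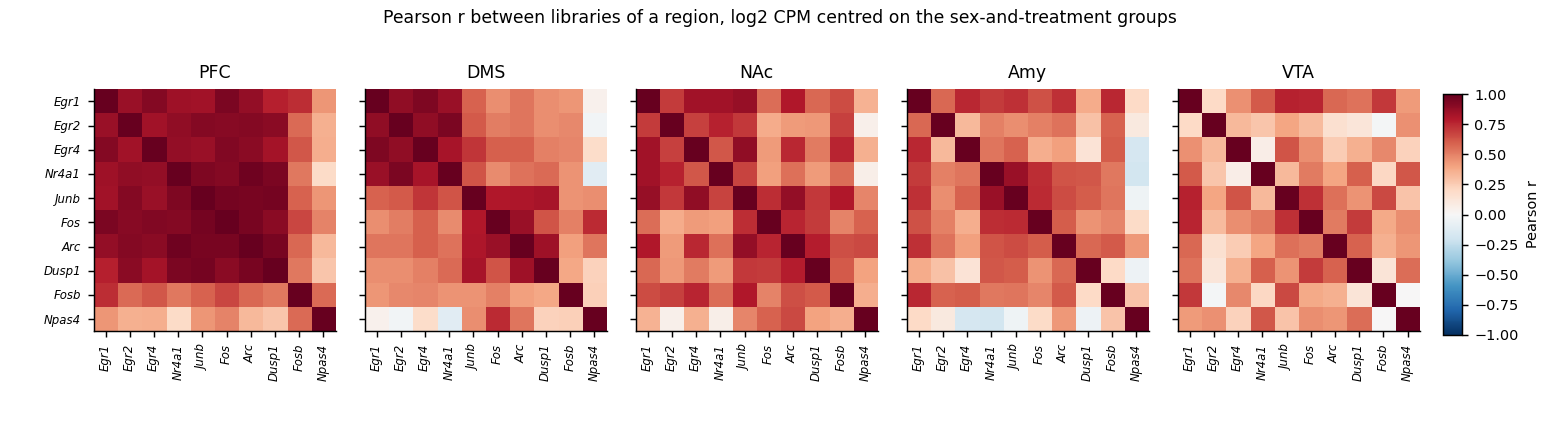
Pearson r of log2 CPM between the 10 genes across the libraries of each region, centered on the sex and treatment groups; the color scale runs from -1 (blue) over 0 (white) to 1 (red). The PFC panel is mostly dark red and palest for Npas4, and the Npas4 row is pale in the DMS and Amy, where r with Nr4a1 was -0.114 and -0.183.

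The shared movement extended to other rapid response genes. For 15373 genes that passed the filter in all 5 regions, the correlation with the mean standardized level of the members was averaged over the regions, and the median over all genes was -0.0075. The 15 genes most like the members were Per1 (mean r 0.68), Arl4d (0.65), Dusp6 (0.63), Fosl2, Nab2 and Sik1 (0.60 each), Dusp5 (0.56), Mknk2 (0.52), Irf2bp2 (0.51), Btg2, Nr4a3, Rbm24 and Per2 (0.50 each), Dnajb5 and Gm13889 (0.48 each). Of these, 8 belong to a list of 28 other rapid response genes, 26 of which were tested. Per1, the clock gene with a CRE in its promoter, had an r of 0.75 (PFC), 0.68 (DMS), 0.53 (NAc), 0.79 (Amy) and 0.63 (VTA). Jun, the classic AP-1 partner of Fos, had a mean r of 0.16 and Nr4a2 one of -0.11.

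Next, THC was compared with vehicle in each region and sex, the main question of the design. At FDR<0.05 and absolute logFC≥0.4, edgeR called no member in any of the 10 comparisons, and DESeq2 called 1, Nr4a1 in the female Amy. Unadjusted p-values below 0.05 were common among members in some groups, and are given beside the same share over all genes. The 10 comparisons share mice across regions, so the regions do not repeat each other independently. Within a region the members moved together, so counts of members or of their signs are not counts of independent results.

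Fos had a lower mean in THC-treated than in vehicle-treated females in all 5 regions, and a higher mean in THC-treated males in all 5. In the female PFC, Fos ran from 6.73 to 29.5 CPM with a median of 24.9 in vehicle libraries and from 3.02 to 23.8 with a median of 8.46 in THC libraries. Library FTL_267 alone lay high among the THC libraries, and the other 5 stood at 10.2 CPM or less, below 5 of the 6 vehicle libraries. In the female DMS the vehicle libraries ran from 2.33 to 9.17 CPM (median 4.02) and the THC libraries from 0.827 to 5.33 (median 1.93), with library FTL_291 highest. In the female NAc the ranges were 3.51 to 16.5 CPM (median 6.35) and 1.92 to 7.85 (median 3.95). All 3 pairs of groups overlapped. In the female Amy the vehicle libraries ran from 6.19 to 14.5 CPM (median 9.55) and the THC libraries from 4.53 to 11.1 (median 5.35), and in the female VTA from 4.46 to 11.8 (median 8.29) and from 3.66 to 9.07 (median 4.90). By edgeR the log2 fold change was -1.14 for the PFC (SE 0.48, adjusted p = 0.855), -1.15 for the DMS (SE 0.47, adjusted p = 0.519) and -1.03 for the NAc (SE 0.45, adjusted p = 0.991). It was -0.60 for the Amy (SE 0.24, adjusted p = 0.170) and -0.62 for the VTA (SE 0.26, adjusted p = 0.521). Each had an unadjusted p below 0.05. None passed the FDR. Leaving out 1 library at a time kept the sign in each region, from -1.61 without library FTL_267 to -0.96 in the PFC and from -1.59 without library FTL_291 to -0.89 in the DMS.

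In males, Fos ran from 3.90 to 10.6 CPM (median 7.197) in vehicle and 4.20 to 15.8 (median 7.33) in THC libraries of the PFC, and from 0.829 to 4.68 (median 1.84) and 1.74 to 6.22 (median 3.10) in the DMS. In the male VTA the 5 vehicle libraries held 3.52, 3.27, 5.67, 3.58 and 2.84 CPM and the THC libraries 2.46 to 5.75 (median 4.06). The male groups overlapped in each of these regions. The log2 fold changes were 0.33 (PFC), 0.56 (DMS), 0.17 (NAc), 0.32 (Amy) and 0.26 (VTA), with SE of 0.23 to 0.47 and adjusted p of 0.766 to 1. The value for the NAc turned to -0.01 without library FTL_332. Vehicle-treated males started lower than vehicle-treated females, with means of 7.17 ± 2.40 against 21.8 ± 8.79 CPM in the PFC and 3.77 ± 1.10 (n = 5) against 8.29 ± 2.85 in the VTA.

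**Figure D3:**
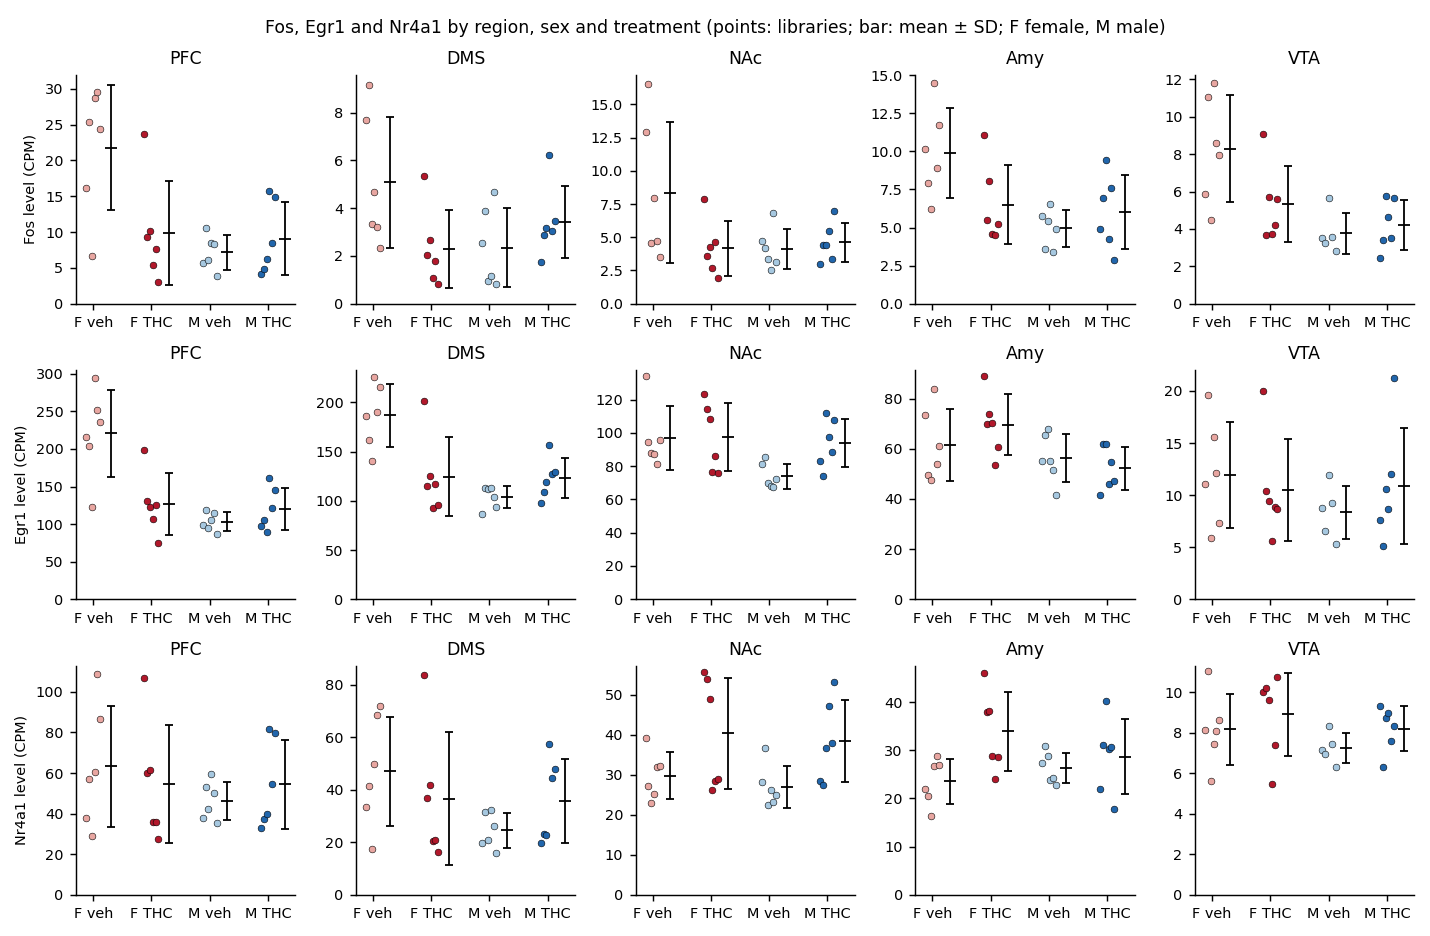
Level of Fos, Egr1 and Nr4a1 in CPM (linear axes from 0) in the 4 groups of each region, F for female and M for male, with points for libraries and a bar for the mean ± SD. In the top row most female vehicle points lie above most of the female THC points in every region. The groups overlap in each, and in the NAc and VTA several points of both groups are interleaved. In the bottom row 3 of 6 THC points of Nr4a1 lie above all vehicle points in the female NAc and in the female Amy.

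In the female PFC, all 10 members had a negative log2 fold change, with a median of -0.48 against 0.00 over all genes, and 6 had an unadjusted p below 0.05, while 5.84% of all genes did and 0% were called. Besides Fos these were the 3 EGR genes, Fosb and Npas4. Leaving out 1 library at a time gave 4 to 7 such members. Egr1 stood at 122.6 CPM in library FTL_263 and at 203.5 CPM or more in the other 5 vehicle libraries (median 226), and ran from 75.1 to 199 in THC libraries (median 124.5), and Egr2 from 1.15 to 6.20 (median 3.90) and from 0.288 to 3.25 (median 1.02). In both genes library FTL_267 was the highest of the THC libraries and library FTL_263 the lowest of the vehicle libraries, and the groups overlapped. For Egr1 the other 5 vehicle libraries lay above all THC libraries. The log2 fold changes were -0.80 for Egr1 (SE 0.25, adjusted p = 0.786), -1.56 for Egr2 (SE 0.52, adjusted p = 0.801) and -0.51 for Egr4 (SE 0.23, adjusted p = 0.855). Npas4 ran from 10.2 to 35.8 CPM (median 19.9) and from 7.12 to 15.3 (median 10.6), a log2 fold change of -0.98 (SE 0.32, adjusted p = 0.797), and Fosb gave -0.45 (SE 0.13, adjusted p = 0.753). Junb, Nr4a1, Arc and Dusp1 lay between -0.40 and -0.07 with unadjusted p of 0.419 or more. In the male PFC all 10 members had a positive sign, from 0.10 for Egr4 to 0.69 for Egr2, with a median of 0.22, and none had an unadjusted p below 0.05, against 4.07% of all genes and 0% called. In the female PFC, 5 projection neuron markers summed to 2237 to 2413 CPM in vehicle and 2231 to 2536 CPM in THC libraries. Medium spiny neuron markers summed to 186.1 to 549.4 CPM in vehicle and 200.8 to 336.7 CPM in THC libraries. Oligodendrocyte markers summed to 1407 to 3526 and 1664 to 3026 CPM. The part of these markers in the female PFC values was not tested.

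The female DMS gave the same signs. All 10 members were negative, with a median of -0.56, and 6 had an unadjusted p below 0.05, against 8.9% of all genes, of which 0.0127% were called. Egr1 ran from 141 to 226 CPM in vehicle libraries (median 188) and from 92.4 to 202 in THC libraries (median 116), and 5 of the 6 THC libraries, at 126 CPM or less, lay below every vehicle library. Egr4 behaved alike, with 32.0 to 51.7 CPM (median 42.5) and 21.1 to 46.8 CPM (median 28.2). Fosb ran from 12.2 to 16.0 CPM (median 13.6) and from 7.90 to 12.7 (median 10.7). In each, library FTL_291 was the 1 THC library within the vehicle range. The log2 fold changes were -0.58 for Egr1 (SE 0.20, adjusted p = 0.405), -0.55 for Egr4 (SE 0.18, adjusted p = 0.392) and -0.39 for Fosb (SE 0.10, adjusted p = 0.256). Npas4 ran from 7.54 to 39.4 CPM (median 26.9) in vehicle libraries and from 7.35 to 16.4 (median 8.05) in THC libraries, with 4 vehicle libraries above all THC libraries, and gave -1.38 (SE 0.40, adjusted p = 0.330). Arc gave -0.69 (SE 0.26, adjusted p = 0.476). Leaving out 1 library at a time gave 4 to 9 members with an unadjusted p below 0.05, the 9 being without library FTL_291. The summed projection neuron markers, which mark cortex next to the punch, were 2.98 to 251 CPM in vehicle and 3.14 to 13.3 CPM in THC libraries, and their part in the result was not tested.

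In the male DMS all 10 members were positive, with a median of 0.26. An unadjusted p below 0.05 was found for 5 of them, Egr2 (0.72, SE 0.24), Fosb (0.22), Egr1 (0.25), Junb (0.28) and Arc (0.58), against 1.93% of all genes with 0% called, and their adjusted p was 1. Egr2 ran from 2.49 to 3.89 CPM (median 3.60) in vehicle libraries and from 2.94 to 8.79 (median 5.17) in THC libraries, of which 4 lay above all vehicle libraries. The count of 5 depended on single libraries, with 1 without library FTL_306, 8 without library FTL_303 and 2 with all 4 groups in one fit.

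In the male NAc, 9 of 10 members were positive, with a median of 0.33, and 6 had an unadjusted p below 0.05, against 16.7% of all genes and 0% called. Junb ran from 46.2 to 54.7 CPM (median 50.3) in vehicle libraries and from 53.0 to 71.4 (median 66.7) in THC libraries, with 1 THC library within the vehicle range. Its log2 fold change was 0.35 (SE 0.07, adjusted p = 0.210). Nr4a1 ran from 22.5 to 36.6 CPM (median 25.6) and from 27.5 to 53.1 (median 37.3), a log2 fold change of 0.53 (SE 0.18, adjusted p = 0.216). The others were Fosb (0.43), Egr1 (0.34), Egr2 (0.57) and Egr4 (0.32), with adjusted p of 0.210 to 0.236, while Npas4 gave -0.04. Medium spiny neuron markers summed to 2282 to 3324 CPM in vehicle and 2889 to 4723 CPM in THC libraries of the male NAc, and projection neuron markers to 4.74 to 99.4 and 1.81 to 11.6 CPM, and their part in these values was not tested. In the female NAc, 8 of 10 members were negative, with a median of -0.11, and Fos alone had an unadjusted p below 0.05 (0 to 2 members when 1 library was left out), against 4.61% of all genes and 0% called. Npas4 gave -0.60 and Nr4a1 0.43, and the EGR genes lay between -0.06 and 0.00.

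In the female Amy, where 1.57% of all genes were called and 21.9% had an unadjusted p below 0.05, 9 of 10 members were positive with a median of 0.17, and Fos was the 1 negative member. Nr4a1 ran from 16.3 to 28.8 CPM (median 24.4) in vehicle libraries and from 23.97 to 46.1 (median 33.4) in THC libraries, of which 3 lay above all vehicle libraries. Its log2 fold change was 0.52 (SE 0.16, adjusted p = 0.0953), and DESeq2 called it at 0.53 (adjusted p = 0.0295). Egr4 gave 0.28 (SE 0.12, adjusted p = 0.184). Without libraries FTL_344 and FTL_356 the values were 0.57 for Nr4a1 (adjusted p = 0.119), 0.28 for Egr4 (adjusted p = 0.272) and -0.54 for Fos (adjusted p = 0.287). Of the 3 members with an unadjusted p below 0.05, 1 was left without library FTL_340 or without library FTL_342. In these libraries the projection neuron markers summed to 471.8 to 708 CPM in vehicle and 760 to 1096 CPM in THC libraries, which did not overlap. Medium spiny neuron markers summed to 275.6 to 604 and 562 to 909 CPM, and 5 markers of hypothalamus and medial amygdala to 15.8 to 28.2 and 10.8 to 19.1 CPM. Choroid plexus markers summed to 8.54 to 1120 and 7.70 to 3451 CPM. None of these markers was at 0 throughout a group, and their part in the Amy results was not tested. In the male Amy 8 of 10 members were positive (median 0.12) and none had an unadjusted p below 0.05, against 1.84% of all genes and 0% called, and Fos gave 0.32, or 0.47 without libraries FTL_344 and FTL_356.

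In the VTA the members other than Fos showed little. In females 7 of the 9 members tested were negative (median -0.14), and Fos alone had an unadjusted p below 0.05 (0 to 2 members when 1 library was left out), against 9.02% of all genes and 0% called. The dopaminergic markers summed to 2147 to 2941 CPM in vehicle and 871.8 to 2926 CPM in THC libraries of the female VTA, the astrocyte markers to 1494 to 2231 and 766.5 to 2189 CPM, and the blood markers to 907 to 1614 and 109 to 3784 CPM. The microglia markers summed to 199 to 248.6 and 149.6 to 223 CPM, and the medium spiny neuron markers to 229.5 to 246.5 and 169.9 to 223 CPM, the last without overlap. The part of these markers in the Fos value was not tested. In males 7 of 9 were positive (median 0.20), none had an unadjusted p below 0.05, against 5.92% of all genes and 0% called, and Egr1 gave 0.47, Egr4 0.42 and Npas4 0.37, with adjusted p of 0.819 to 0.881. Over the 10 comparisons the median of all genes stayed within 0.01 of 0.

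**Figure D4:**
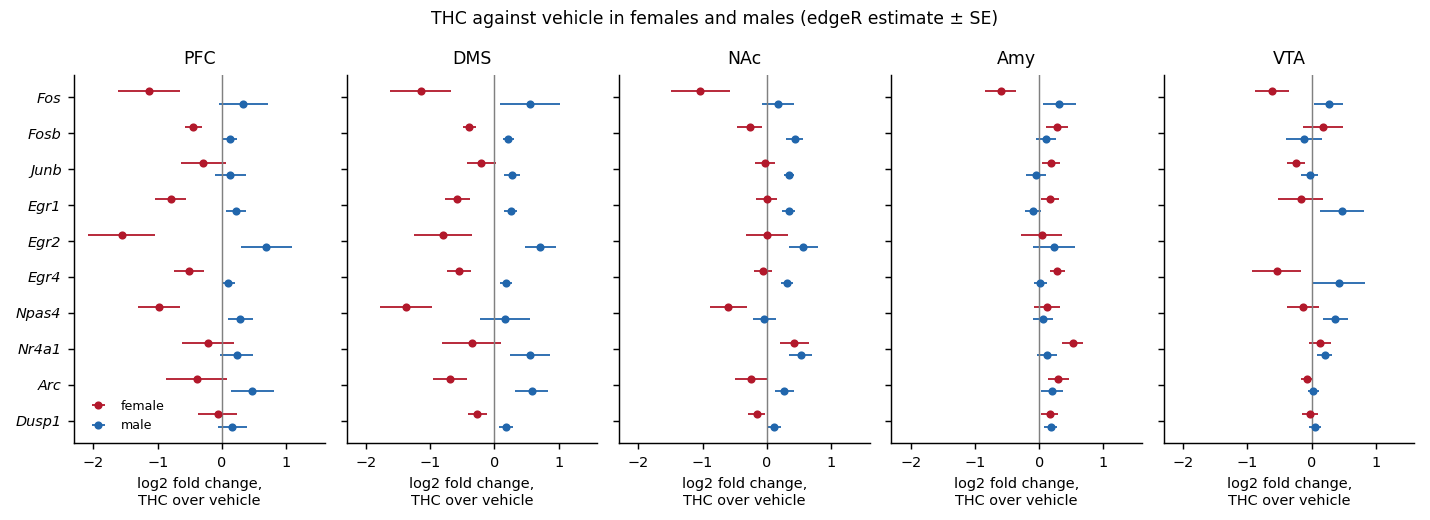
Log2 fold change of THC over vehicle for each of the 10 genes in females (red) and males (blue) of each region, as edgeR estimates with bars of ± 1 SE; Egr2 was not tested in the VTA. In the PFC and DMS every female point lies left of 0 and every male point right of it, and for the Amy and VTA the female Fos point lies left of 0, at -0.60 and -0.62.

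Whether THC acted differently in the sexes was tested by the sex x treatment interaction, given as the male minus the female log2 fold change. It uses the same libraries as the comparisons within each sex, so it does not add independent evidence of their signs. No member was called by edgeR or DESeq2 in any region. In the PFC all 10 interaction terms were positive, with a median of 0.74 and 6 unadjusted p-values below 0.05, against 5.87% of all genes and 0% called. In the DMS all 10 were positive, with a median of 0.87 and 8 below 0.05, against 5.9% and 0%. In the NAc all 10 were positive, with a median of 0.45 and 4 below 0.05, against 11% and 0%. The Amy had 3 of 10 positive terms with a median of -0.14 and 1 below 0.05, against 15.8% and 0.0059% called, and the VTA 8 of 9 with a median of 0.21 and 1 below 0.05, against 6.16% and 0%. The members thus stood above the share of all genes in the PFC, DMS and NAc, although the NAc count ran from 1 to 6 when 1 library was left out, and that of the VTA from 0 to 2. These counts are not of independent genes. The median r between members within groups was 0.866 (PFC), 0.533 (DMS) and 0.643 (NAc), so a few libraries can move most members together.

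Fos had an unadjusted p below 0.05 in each of the 5 regions. By edgeR its interaction was 1.47 for the PFC (SE 0.63, adjusted p = 0.835), 1.70 for the DMS (SE 0.69, adjusted p = 0.788) and 1.20 for the NAc (SE 0.54, adjusted p = 0.431). It was 0.92 for the Amy (SE 0.37, adjusted p = 0.271), or 1.01 without libraries FTL_344 and FTL_356, and 0.89 for the VTA (SE 0.37, adjusted p = 0.780). Fosb in the DMS had the smallest p of any member, with an interaction of 0.61 (SE 0.14, adjusted p = 0.362). In the DMS, Egr1 gave 0.83, Egr4 0.73, Arc 1.27, Egr2 1.52, Npas4 1.55 and Dusp1 0.44, with adjusted p of 0.589 to 0.800. In the PFC, Egr1 gave 1.02, Npas4 1.26, Fosb 0.57, Egr2 2.25 and Egr4 0.61, each with an adjusted p of 0.835. In the NAc, Fosb gave 0.70 (adjusted p = 0.385).

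With the sexes of a region combined and sex as a covariate, edgeR and DESeq2 called no member. An unadjusted p below 0.05 was found for Nr4a1 alone, in the NAc (0.48, SE 0.15, adjusted p = 0.338) and in the Amy (0.33, SE 0.13, adjusted p = 0.677, or 0.41 without libraries FTL_344 and FTL_356). Among all genes, 4.78% (PFC), 4.89% (DMS), 10.3% (NAc), 7.05% (Amy) and 10.2% (VTA) had such a p, and 0% passed FDR and fold in each. Leaving out 1 library gave 1 to 3 such members in the NAc and 1 to 4 in the Amy.

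Males were then compared with females, with treatment in the model. The log2 difference of males from females was negative for 9 of 10 members in the PFC, for all 10 in the DMS, NAc and Amy, and for all 9 tested in the VTA. Egr4 in the DMS was called, at 36.4 ± 10.6 CPM in females (n = 12) and 26.6 ± 3.78 in males (n = 12), a difference of -0.42 (SE 0.13, edgeR adjusted p = 0.0447), with ranges of 21.1 to 51.7 and 21.03 to 34.2 CPM. The call lay close to the limit, since it was lost in 15 of 24 fits without 1 library and without the filter on low counts. It was 1 member of 10 in the DMS, where 2.64% of all genes were called and 27.8% had an unadjusted p below 0.05, and Egr1 gave -0.42 there (adjusted p = 0.0641). No member was called by edgeR in the PFC (0.24% of all genes called), where 4 had an unadjusted p below 0.05 (16.3% of all genes) and Egr1 gave -0.59 (adjusted p = 0.101), nor in the NAc (0.243% called), where 4 did (16.6%), or 2 to 5 when 1 library was left out. In the Amy 2 members did (6% of all genes, with 0.012% called) and in the VTA 2 (7.16%, with 0.109% called), or 1 to 3 when 1 library was left out. Fos gave -0.89 (PFC), -0.28 (DMS), -0.42 (NAc), -0.57 (Amy) and -0.75 (VTA), with an adjusted p of 0.287 in the VTA, and the value for the Amy was also -0.57 without libraries FTL_344 and FTL_356. DESeq2 called Egr1 in the PFC and the DMS, Egr4 in the DMS and Fos in the VTA, each lower in males. For Egr4 in the DMS, much of the difference stood in the vehicle groups. It was 43.4 ± 6.94 CPM in vehicle-treated females and 25.0 ± 3.10 in vehicle-treated males, which did not overlap, and 29.5 ± 8.98 and 28.2 ± 3.94 CPM after THC. In the Amy, by contrast, the interaction was negative for 7 of 10 members. For these, male values stood lower against the female ones with THC than with vehicle.

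Other genes of the same pathway give the surroundings of these values. Of 28 other rapid response genes, 27 were tested in the female Amy, where 11 had an unadjusted p below 0.05, all higher with THC, and 5 were called, against 21.9% of all genes with such a p and 1.57% called. Nr4a2, a nuclear receptor of the Nr4a1 family, rose without overlap, with vehicle libraries at 9.86 to 13.8 CPM and THC libraries at 15.3 to 21.3 CPM (log2 fold change 0.60, SE 0.11, edgeR adjusted p = 0.0168). Nr4a3 of the same family rose by 0.58 (adjusted p = 0.0225; 23.4 to 39.0 and 39.2 to 51.6 CPM), Egr3 by 0.51 (adjusted p = 0.0270; 37.6 to 60.5 and 58.4 to 79.9 CPM), the kinase Plk2 by 0.40 (adjusted p = 0.020; 103 to 137 and 146 to 182 CPM) and the pseudokinase Trib1 by 0.55 (adjusted p = 0.0112; 5.36 to 6.41 and 7.52 to 9.88 CPM). Trib1 was called in all 12 fits without 1 library, Nr4a2 and Nr4a3 in 8, Egr3 in 6 and Plk2 in 5, and all 5 were called without libraries FTL_344 and FTL_356, while Nr4a3 was not called with all 4 groups in one fit. Of 7 late response genes Nptx2, a synaptic pentraxin, rose by 1.05 in the female Amy (adjusted p = 0.0127; 14.04 to 34.9 and 34.6 to 54.1 CPM), and Scg2, which encodes a secretory granule protein, gave -0.39 (adjusted p = 0.0319), below the fold limit. These calls came with the difference in projection and medium spiny neuron markers given above for the same libraries.

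In the female DMS, 8 of 27 other rapid response genes had an unadjusted p below 0.05, all lower with THC, against 8.9% of all genes. The kinase Plk3 fell by 0.72 on the log2 scale (SE 0.11, adjusted p = 0.0444), with vehicle libraries at 5.22 to 6.89 CPM (median 6.05) and THC libraries at 3.23 to 4.38 CPM (median 3.49). The groups did not overlap. It was 1 of 2 genes called in that comparison, although it was called in only 3 of 12 fits without 1 library. In the male NAc, 7 of 27 were higher and 1, Nr4a2, lower at an unadjusted p below 0.05, with Per1 at 0.25 and none called, against 16.7% of all genes. In the other 7 comparisons between 0 and 3 of these genes had such a p. In the interaction, 9 of 28 had one in the DMS, all positive, led by Plk3 at 0.77 (adjusted p = 0.322), against 5.9% of all genes, and 3 of 26 in the PFC, all positive, against 5.87%. In the Amy 8 of 27 had one, 6 of them negative (Nr4a2 -0.71, Nr4a3 -0.71, Egr3 -0.47, Per1 -0.46, Plk2 -0.43 and Trib1 -0.38, with adjusted p of 0.232 to 0.261), against 15.8% of all genes. In the NAc 2 were positive and 2 negative of 28, and in the VTA 1 was positive.

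The 15 upstream regulators, kinases and bound factors such as Creb1 and Srf, gave no call by edgeR for THC, sex or interaction (DESeq2 called Camk4 in the female Amy), while 9 of 15 were higher in the female Amy at an unadjusted p below 0.05 (median 0.23) and 10 of 15 in the male NAc (median 0.17), with 21.9% and 16.7% of all genes at that level. Between the sexes, edgeR called Fosl2 in the PFC (-0.62, adjusted p = 0.0102), Nr4a3 in the DMS (-0.81, adjusted p = 0.0463) and the VTA (-1.02, adjusted p = 0.0254) and the prohormone convertase Pcsk1 in the DMS (-0.49, adjusted p = 0.00148), all lower in males. Fosl2 and Pcsk1 were called in all 24 fits without 1 library, and Nr4a3 in 9 of 24 in the DMS and in 16 of 23 in the VTA. The call of Nr4a3 in the DMS was also lost without the filter on low counts.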

How the data were processed

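Messenger RNA of 119 libraries was measured. According to the submitters' processing notes and the study's methods, the authors made stranded poly(A) libraries, trimmed reads with cutadapt 2.9, aligned them to mm10 with STAR 2.7.3a and counted genes with RSEM 1.3.1. The deposited values are RSEM expected counts, not normalized, in 2 tables, 1 of the PFC and DMS and 1 of the NAc, Amy and VTA. Of these values, 4.75% and 5.00% were not whole (0% for the members), and they were rounded. No column was left unused.

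Genes were filtered with filterByExpr, scaled by TMM and tested with edgeR 4.0.16 in R 4.3.3 (quasi-likelihood F test, Benjamini-Hochberg adjustment over all genes tested), separately for each region and sex, over all libraries of a region for interaction and sex, and over all vehicle libraries for regions. Genes were called at FDR<0.05 and absolute logFC≥0.4. Log2 CPM used a prior count of 2. DESeq2 1.42.0 was an alternative, as were other scaling, no filter and leaving out each library. Correlations were permuted within groups with numpy 2.4.6. Scripts were tested on simulated data. All members are named. Of the other lists, genes called in a THC, interaction or sex comparison are named, with at most 4 further examples. Jun and Nr4a2 among the likeness values were chosen after their values were seen. The members and lists were chosen with earlier results of these data known. Libraries of 1 group came from separate mice by the study's account, but the labels name no mouse, so p-values measure the spread between these libraries. No 2 libraries held identical values.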

Additional observations from a re-analysis of the deposited data

Results flagged for a closer look

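Over the 10 genes and 20 groups, 200 sets of 5 or 6 libraries were examined for a library far from the others by Dixon's criterion at the 95% level, and 21 stood apart, 20 of them as the highest of their group. Chance gives about 5% of such sets if they are independent and their values follow a normal distribution. CPM was taken on a linear scale and the members moved together within a region, so the 21 are not independent results.

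Library FTL_291 of THC-treated females in the DMS was the highest of its group for all 10 genes and stood apart for 6, with 110 CPM of Junb, 202 CPM of Egr1, 46.8 CPM of Egr4, 16.4 CPM of Npas4, 75.4 CPM of Arc and 24.4 CPM of Dusp1. Library FTL_267 of THC-treated females in the PFC was the highest for all 10 and stood apart for 3, with 23.8 CPM of Fos, 3.25 CPM of Egr2 and 179 CPM of Arc. Library FTL_363 of THC-treated females in the VTA held 15.7 CPM of Junb and 20.0 CPM of Egr1, and library FTL_339 of THC-treated females in the Amy held 3.02 CPM of Egr2.

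Among vehicle-treated mice, library FTL_371 of the male VTA held 5.67 CPM of Fos and 0.597 CPM of Egr2, library FTL_358 of the female VTA 0.764 CPM of Egr2 and 8.34 CPM of Npas4, library FTL_286 of the female DMS 100.2 CPM of Junb, library FTL_309 of the female NAc 134 CPM of Egr1, library FTL_277 of the male PFC 9.46 CPM of Fosb and library FTL_322 of the male NAc 18.3 CPM of Dusp1. Library FTL_371 was also the smallest of the series, with 3090998 counts in total, so its low levels rest on few reads. The study removed a male VTA library as an outlier and does not name it. Library FTL_325 of the male NAc was the lowest of its group, with 17.3 CPM of Egr4. The effect of leaving out libraries FTL_267 and FTL_291 on the THC comparisons stands beside those comparisons.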

How the results depend on the processing

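No paired analysis was possible because each library carries its own number and no 2 groups share a number. DESeq2 called 1 member between the sexes in the PFC, 2 in the DMS and 1 in the VTA, where edgeR called 0, 1 and 0, and 1 member for THC in the female Amy, where edgeR called 0. Without the filter on low counts 0 members were called between the sexes in the DMS. Leaving out 1 library gave 0 to 1 member between the sexes in the PFC and 0 to 2 in the DMS. Between regions, THC libraries gave 1 member between DMS and NAc, 5 between DMS and Amy and 1 between NAc and Amy, and male vehicle libraries gave 5 and 1 for the latter pairs. Nr4a1 between DMS and Amy turned to -0.089 in male vehicle libraries (adjusted p = 0.621), and Fos in the male NAc to -0.0094 without library FTL_332, with a range of -0.0094 to 0.374 over all single libraries left out. Pairs passing in vehicle libraries alone numbered 24, 13, 10, 8 and 9 in the PFC, DMS, NAc, Amy and VTA, where fewer libraries entered. Other causes were not tested. Of the counts of called members and of passing pairs without 1 library, 506 stayed within 1.5 times the reported one and 20 did not. Of the other values without 1 library, 2123 kept their direction and call or, for counts, stayed within 1.5 times, and 105 moved. Among the latter, the count of members at an unadjusted p below 0.05 moved in 10 of 12 fits for the male DMS and in 14 of 24 for the NAc interaction.

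Counts over all genes moved more. The 2 genes called in the female DMS became 24 with DESeq2, 4 without the filter and 5 with all 4 groups in one fit. The 1.57% of genes called in the female Amy became 544 genes with DESeq2, 126 with all 4 groups in one fit and 159 without libraries FTL_344 and FTL_356. In the Amy interaction 1 gene became 27 with DESeq2, 2 without the filter and 0 without those libraries, and in the male against female Amy 2 became 13 with DESeq2 and 14 without those libraries. DESeq2 also called 65 genes in place of 40 between the sexes in the NAc and 34 in place of 18 in the VTA. Where edgeR called 0, DESeq2 called 3 in the DMS interaction and, for THC, 5 in the male NAc, 2 in the Amy of both sexes, 6 in the female VTA (1 by edgeR without the filter) and 1 in the male VTA. Depth limits Egr2 and Egr4 in the VTA most, where libraries held as few as 0 and 2 counts.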

Other observations

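The following values were picked out after they were seen. Among the 6 THC-treated females, the library with the highest Fos was FTL_267 for the PFC (23.8 CPM), FTL_291 for the DMS (5.33 CPM), FTL_315 for the NAc (7.85 CPM), FTL_339 for the Amy (11.1 CPM) and FTL_363 for the VTA (9.07 CPM). Their library numbers lie 24 apart. The mean standardized level of the members was 1.35, 1.38, 1.19, 1.84 and 1.24 SD above the mean of the region in these libraries. Likewise FTL_272, FTL_296 and FTL_320, also 24 apart, had the lowest mean of their regions, at -1.68 (PFC), -1.50 (DMS) and -1.12 (NAc). In contrast, FTL_344 and FTL_368, the next numbers at that distance, stood at 0.134 (Amy) and 0.0462 (VTA). FTL_344 goes against its sex label, as does FTL_356, which stood at -0.845 (Amy). The lowest mean in the Amy was that of FTL_335, at -1.08. No label ties a library to a mouse, and a shared mouse was not tested.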
